A study of Saccharomyces cerevisiae with 16 samples.

Results

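The regions described here are the convergent intergenic regions of budding yeast, the stretches of DNA into which a gene on the W (Watson) strand and its right-hand neighbour on the C (Crick) strand both end. They were found from the spot names alone: a region carries the name of the open reading frame (ORF) to its left with an I before it, and it was kept when that ORF has strand letter W and the next numbered ORF of the arm has strand letter C. Names within the 8 highest ORF numbers of an arm were left out, which removed 52. This gave 1310 convergent regions among 5267 regions named for an ORF and 13059 spot names in all, beside 1257 divergent regions (between 2 gene starts), 2468 tandem regions and 6203 ORF spots. The rule reads names and strands, not measured values.

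The study used chromatin immunoprecipitation followed by hybridisation to spotted arrays (ChIP-chip), in which immunoprecipitated (IP) DNA and total input DNA compete for the same spots and each spot gives a log2(IP/input) ratio. All cells were haploid W303a yeast grown asynchronously in YEPD, a rich medium, and every tagged protein carried MYC copies and was precipitated with a MYC antibody. The first group holds 4 arrays of DNA Pol2-MYC cells with an intact RRM3 gene, the second 6 arrays of DNA Pol2-13MYC cells labelled rrm3 delete, and the third 5 arrays of Rrm3-13MYC cells. A further array, 231, carries labels that contradict each other on the deletion and entered no group. The labels do not say which arrays come from separate cultures, and the series text calls dye swaps technical replicates, so each p-value reflects only how far these arrays differ, part of which may be technical. The extraction text of wild-type array 086 also names an H3K36me2 antibody.

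Pol2 is the catalytic subunit of DNA polymerase epsilon, which copies the leading strand, so its IP marks DNA where replication forks spend time. Rrm3 is a helicase of the Pif1 family that moves with the fork and helps it past stable protein complexes on DNA, of which tRNA genes are the best-known example. A convergent region holds the ends of 2 transcription units and, as a rule, no promoter of its flanking genes. In yeast such regions are also where cohesin, the ring that holds sister chromatids together, is found in high amounts.

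Of the 1310 regions, 1188 were measured on at least 3 arrays of each group and were tested. The other 122 were not, and counts below refer to the 1188. The spot of the RRM3 gene itself served as a check of the deletion: its input signal lay at percentile 0.8 to 1.9 of all spots on 4 of the 5 rrm3 delete arrays that measured it, and at percentile 28.8 to 95.7 on the 8 measured arrays of the other groups. Array 239, labelled rrm3 delete, had it at percentile 50.1, against its label. Array 136 of the wild type gave ratios that ran against all other arrays when read as labelled (r from -0.54 to -0.15) and was turned in the authors' deposited table; that direction was used. The 49.7% and 54% of spots that the scanner software rejected on arrays 136 and 182 left 574 and 591 convergent regions measured there, against 1064 to 1283 on the other grouped arrays.

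The reading of a name as the region to the right of its ORF was checked on the values. Across 1098 regions, the Pol2 ratio in wild type had r = 0.32 with the named ORF and 0.33 with the next ORF, against 0.09 with the ORF on the far side of the named one. In the Rrm3 IP the same correlations were 0.21, 0.20 and 0.01. These are descriptions across regions that share arrays, and carry no test. In the current reference order of genes (R64, used only for names and neighbours), 1126 of the pairs are direct neighbours facing each other, 78 have further genes between them, and 106 include an ORF that R64 does not list.

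Over all arrays, a larger share of convergent regions than of divergent regions, tandem regions or ORF spots was called higher in the Rrm3 IP. The excess over all features was nearly absent when the arrays with the IP in Cy5 were taken alone. Of the 1188, 222 (18.7%) were above the array median at an adjusted p under 0.05 and 58 (4.88%) were below, while 11.0% of all 12380 features tested were above and 12.7% below. Divergent regions ran the other way, with 5.64% above and 16.6% below, and tandem regions (9.04% and 11.8%) and ORF spots (9.41% and 13.3%) lay near the figure for all features. The median fitted log2 ratio was 0.21 for convergent regions, -0.13 for divergent, -0.03 for tandem and -0.04 for ORFs. These shares and medians describe classes, and no test of a class was made.

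The shift was present on each of the 5 Rrm3 arrays. The convergent median was 0.14 on array 031, 0.12 on 041, 0.14 on 088, 0.44 on 184 and 0.20 on 185, while the divergent median lay between -0.19 and -0.08. All 5 arrays had convergent above divergent regions, by 0.21 to 0.52. On the 4 wild-type Pol2 arrays the same difference was -0.01 to 0.17 and on the 6 rrm3 delete arrays 0.00 to 0.23, so the lowest Rrm3 array lay within the range of the rrm3 delete arrays and above that of the wild type. Array 184, which together with 185 has the dyes exchanged, was the highest.

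**Figure D1:**
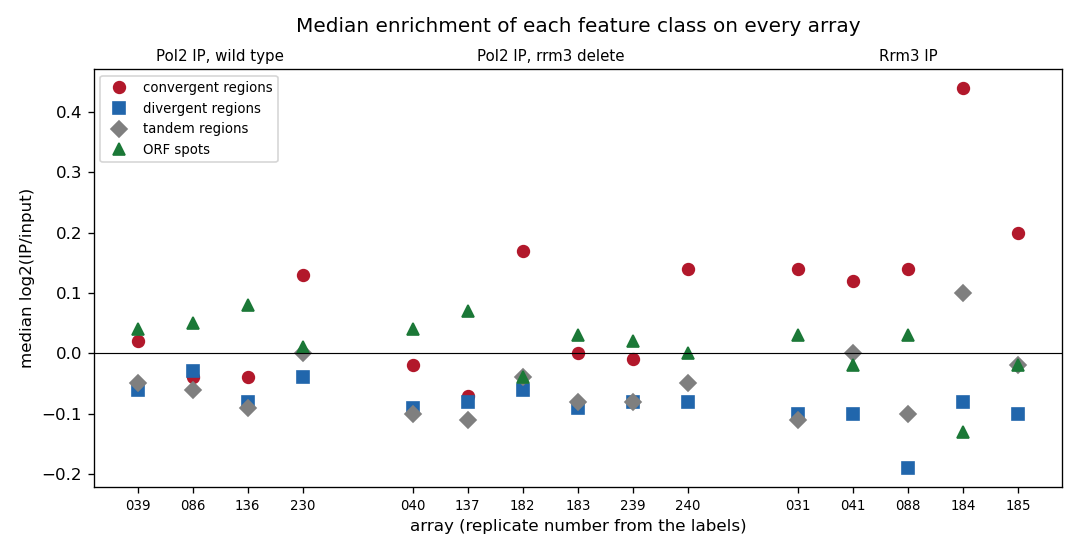
Median log2(IP/input) of convergent regions, divergent regions, tandem regions and ORF spots (vertical axis) on each grouped array (horizontal axis). Convergent regions sit at 0.12 to 0.44 on all 5 Rrm3 arrays with divergent regions below 0, and on the Pol2 arrays the convergent medians range from -0.07 to 0.17.

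Convergent regions also exceeded the genes that flank them. In the Rrm3 IP, 71.4% of 1131 regions were above the mean of their own 2 ORFs, by a median of 0.24, and on single arrays this median ran from 0.10 to 0.46. Divergent regions lay 0.10 below their ORFs by the same measure and tandem regions at 0.00. In the Pol2 IPs the convergent regions differed from their ORFs by a median of 0.03 in wild type and 0.04 in rrm3 delete. By chromosome arm, all 21 arms with at least 20 tested convergent regions had a positive Rrm3 median, from 0.06 to 0.38.

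The input signal moved with class. Convergent spots had a median input percentile of 37.8, against 50.9 for divergent, 48.0 for tandem and 48.5 for ORF spots, and low-input spots had higher ratios in every class. Since input is the denominator of the ratio, the classes were set side by side within ranges of input. The Rrm3 median of convergent against divergent regions was 0.45 and 0.35 below percentile 25, 0.22 and 0.00 between 25 and 50, -0.01 and -0.23 between 50 and 75, and -0.23 and -0.40 above 75. Tandem regions had 0.41, 0.05, -0.13 and -0.26 in the same ranges, and ORF spots 0.26, 0.02, -0.13 and -0.28. Convergent regions were thus the highest class in each range, but close to tandem regions below percentile 25 and above 75. Their level fell below 0 in the upper ranges. The part of spot length, base composition and amount of DNA on the spot in these values was not tested.

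**Figure D2:**
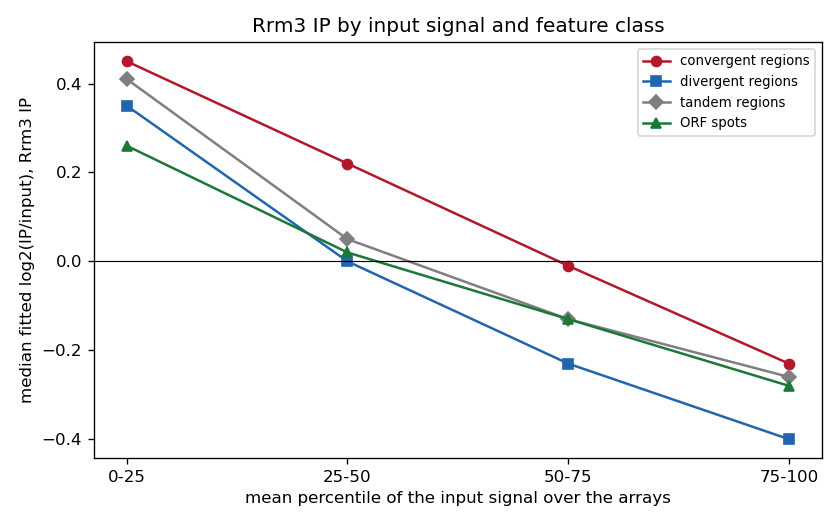
Median fitted log2(IP/input) of the Rrm3 IP (vertical axis) for each feature class in 4 ranges of the mean input percentile (horizontal axis). All classes fall from left to right, and convergent regions, from 0.45 to -0.23, are above divergent regions, from 0.35 to -0.40, in each range.

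The number of regions called in the Rrm3 IP depended on single arrays more than the median did. Without array 184, 79 of 1145 were above the array median. Without any one of the wild-type arrays 039, 086 or 230, the requirement of 3 arrays a group rested on array 136 and only 534 to 543 convergent regions could be tested, of which 65 to 71 were called higher; the lower count was 36 without 039 and 36 without 230. The share stayed above that of all features in these fits: 6.9% against 4.9% without array 184, and 12.2% to 13.2% against 8.69% to 8.74% without one of the 3 wild-type arrays. With the arrays that have the IP in Cy5 taken alone the shares were nearly equal, as 17 of 1146 convergent regions were called higher (1.48%), against 1.37% of all 11949 features and 0.357% of divergent regions. That fit had no dye term and a lower minimum of arrays in each group than the main fit, so it differs in more than its arrays. In it the convergent median was 0.11 and the divergent one -0.16, and 2.09% of convergent regions were lower, against 4.3% of all features. Leaving out any single array kept the median between 0.13 and 0.24.

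The regions named next had the highest Rrm3 values among those above 0 on every Rrm3 array that measured them. IYPR080W on chromosome XVI, between TEF1 (translation elongation factor EF-1 alpha) and GRS2 (a glycyl-tRNA synthetase gene), had log2 ratios of 1.51, 0.92, 1.35, 2.69 and 1.78 on Rrm3 arrays 031, 041, 088, 184 and 185. In the Pol2 IP it had 1.16, 0.70, 1.07 and 1.38 on wild-type arrays 039, 086, 136 and 230, and from -0.14 to 2.58 with a median of 1.06 on the 6 rrm3 delete arrays. It was above 0 on all arrays but 137, and the 3 groups overlapped. Its fitted values were 1.73 ± 0.23 (SE, n = 5; 3.32-fold, adjusted p = 0.000371) in the Rrm3 IP, 1.08 ± 0.26 (n = 4; adjusted p = 0.0286) in wild type and 1.08 ± 0.21 (n = 6; adjusted p = 0.00198) in rrm3 delete. It was the only convergent region of the 1188 that was higher in all 3 IPs (0.0842%, against 0.582% of all features), although the wild-type call was lost in 8 of 26 alternative settings.

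IYOR063W on chromosome XV, between RPL3 (a protein of the large ribosomal subunit) and YNG1 (a subunit of the NuA3 histone acetyltransferase), had 0.16, 1.80, 2.09, 1.80 and 1.41 on the same 5 Rrm3 arrays. The wild-type Pol2 arrays gave 0.89, 0.62, 0.65 and 0.81, so that all Rrm3 arrays but 031 were above every wild-type array. The fitted Rrm3 value was 1.45 ± 0.21 (n = 5; 2.73-fold, adjusted p = 0.000525). RPL3 itself was at 1.55 and YNG1 at 0.73 in the Rrm3 IP, so the region was close to the higher of its ORFs.

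IYHR202W on chromosome VIII, between SMN1 and RPS4B (a protein of the small ribosomal subunit), had 0.95, 0.93, 1.99, 1.04 and 1.70 in the Rrm3 IP. The wild-type values were 1.17, 0.57 and 0.39 on arrays 039, 086 and 230, overlapping the Rrm3 arrays. Its fitted Rrm3 value was 1.32 ± 0.19 (n = 5; adjusted p = 0.000675), while SMN1 was below the array median at -0.69 (adjusted p = 0.0359). Other regions with high Rrm3 values were IYGR234W beside the flavohaemoglobin gene YHB1 (1.42 ± 0.21, n = 3), IYIR012W between SQT1, a chaperone for a ribosomal protein, and GAT4 (1.38 ± 0.24, n = 3) and IYOL032W between OPI10 and SIL1 (1.48 ± 0.37, n = 4). IYIR012W had 1.03, 0.10 and 2.50 on arrays 031, 088 and 184, the 3 Rrm3 arrays that measured it. IYOL032W had 3.42 on array 184 against 0.45 to 1.56 on the other 3, and its call was lost without array 184, without array 031 and in 3 further settings.

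Lists of genes from groups with many members strongly transcribed in rich medium were set beside the regions that end in them. The lists were drawn up by family or function, so a listed gene need not be strongly transcribed, and transcription was not measured here. Ribosomal proteins, glycolysis and fermentation, translation factors, cell surface proteins, chaperones and histones together flanked 83 tested convergent regions. In the Rrm3 IP these had a median of 0.52, and 43 of them (51.8%) were above the array median. The 1105 convergent regions beside none of these genes had a median of 0.19, with 179 (16.2%) above. The listed ORFs themselves had a median of 0.55, so region and gene stood at a similar level.

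By list, 27 of 58 regions beside ribosomal protein genes were higher (median 0.48). All 5 tested regions beside cell surface genes were higher (0.63). Of 7 regions beside glycolytic genes 4 were higher (0.73), and of 6 beside histone genes 4 were (0.57). Chaperone genes flanked 4 regions, of which 2 were higher (0.19), and translation factor genes 3, of which 1 was higher (0.59). Regions beside genes of meiosis and galactose use, which are little transcribed in this medium, had a median of 0.10; 1 of the 7 was called higher and 2 were called lower.

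The regions ending in named glycolytic, cell wall and histone genes show the range. IYJR008W beside TDH2, a glyceraldehyde-3-phosphate dehydrogenase gene, had 1.19, 0.71, 0.84, 1.68 and 0.92 on the 5 Rrm3 arrays (fitted 1.09 ± 0.18, adjusted p = 0.00177). IYLR109W between AHP1 (a thiol peroxidase) and CCW12 (a cell wall mannoprotein) had 0.22, 1.31, 2.05, 1.13 and 0.92 (1.12 ± 0.19, adjusted p = 0.00198). All arrays were positive for both, and array 031 was the lowest for the second. The Rrm3 ratio of AHP1 was -0.15 and that of CCW12 1.52. IYNL030W beside the histone H4 gene HHF2 had 1.42, 0.51, 0.61, 1.16 and 0.75 (0.90 ± 0.16, adjusted p = 0.00199), and IYNL032W beside the histone H3 gene HHT2 had -0.20 on array 031 and 0.73 to 1.15 on the other 4 (0.74 ± 0.17, adjusted p = 0.00883).

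Divergent and tandem regions beside listed genes had lower medians than the convergent ones, a difference that was not tested. The listed genes were not the same in each class (81 tested ORFs for convergent, 82 for divergent and 118 for tandem regions). A tandem region can hold the start or the end of its listed gene. Divergent regions, which hold the starts of their listed genes, had a Rrm3 median of 0.09, with 8 of 79 higher. The listed ORFs they flank had 0.50. Tandem regions beside listed genes had 0.16, with 29 of 155 higher. Input differed as well (these ranges were compared after the values were seen), with median percentiles of 43.7 for the convergent, 62.9 for the divergent and 57.0 for the tandem regions beside listed genes. Within input percentiles 25 to 50 the Rrm3 medians were 0.65 (36 convergent), 0.12 (18 divergent) and 0.18 (50 tandem), and within 50 to 75 they were 0.28 (25), -0.06 (34) and 0.13 (63). Below 25 they were closer, at 0.63 (17), 0.51 (8) and 0.52 (13). In the wild-type Pol2 IP the convergent regions beside listed genes had a median of 0.24, tandem 0.01 and divergent -0.07, and in rrm3 delete 0.22, -0.10 and -0.13. On every one of the 10 Pol2 arrays the convergent median beside listed genes (0.12 to 0.34) was above the divergent one (-0.29 to -0.03).

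Array 031 departed from this order. It had medians of -0.19, -0.10 and -0.21 for convergent, divergent and tandem regions beside listed genes, while the convergent medians on the other 4 Rrm3 arrays were 0.63, 0.68, 0.80 and 0.51. Its convergent regions beside no listed gene, at 0.15, were within the 0.10 to 0.42 of the other 4 arrays. Arrays 031 and 041 share a larger spot layout, and 041 did not depart.

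**Figure D3:**
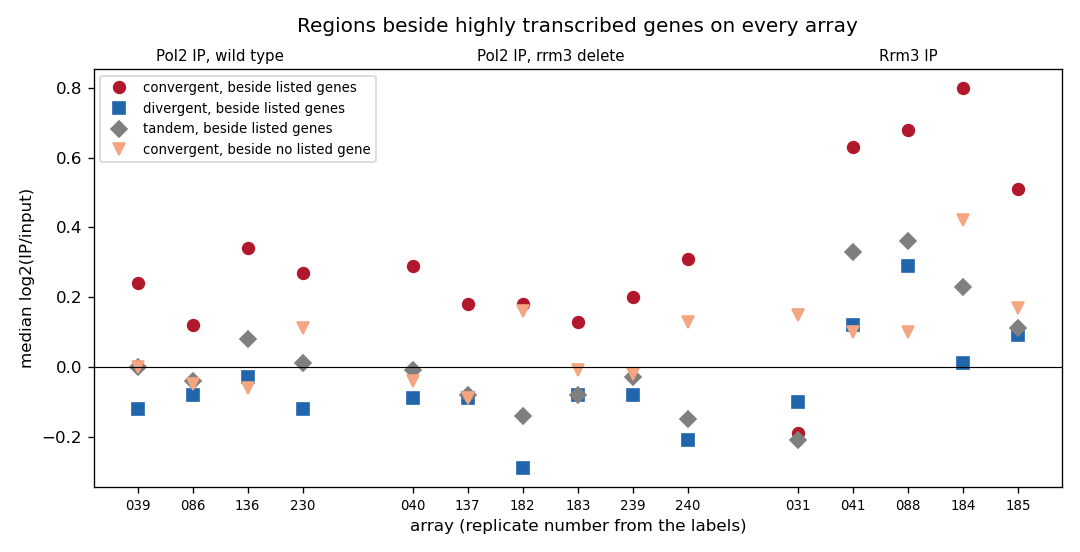
Median log2(IP/input) on each grouped array of convergent, divergent and tandem regions beside listed genes other than those of meiosis and galactose use, and of convergent regions beside no listed gene. Convergent regions beside listed genes are above the divergent and tandem ones on 14 of the 15 arrays, array 031 being the exception.

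In the Pol2 IP of wild-type cells few convergent regions left the array median. Higher values were called for 4 of 1188 (0.337%, against 0.937% of all features) and lower values for 22 (1.85%, against 2.37%), and the median was 0.07. Besides IYPR080W, the higher regions included IYIL078W beside THS1, the threonyl-tRNA synthetase gene, with 0.95, 0.37, 1.09 and 1.29 on arrays 039, 086, 136 and 230 (fitted 0.93 ± 0.23, n = 4, adjusted p = 0.0325). IYKL098W between MTC2 and YKL097C had nearly the same value on all 4 arrays (0.55, 0.49, 0.61 and 0.60; fitted 0.56 ± 0.14, adjusted p = 0.0294). These 3 were positive on every wild-type array, and the fourth, IYER046W between SPO73 and SAP1 (1.05), was not. The counts moved with single arrays. Without 039, 086, 136 or 230 there were 0 to 1 higher regions (at most 0.186%, against 0.461% to 0.603% of all features). The lower count was then 4 to 12 (0.737% to 1.3%, against 1.32% to 1.75%). Without Rrm3 array 031, which shares the error estimate, there were 29 higher and 55 lower (2.48% and 4.7%, against 3.59% and 5.24%).

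The lower regions shared their sign across arrays, but their number was not steady. It was 2 with array 136 as labelled (0.168%, against 0.226% of all features). With forward arrays alone it was 0, against 0.0753% of all features. All 22 were below 0 on each wild-type array that measured them, and 21 of the 22 were also lower in rrm3 delete, which had 71 in all. Both sets of calls come from one fit with a shared error estimate. IYDR494W on chromosome IV, between RSM28 (a protein of the mitochondrial ribosome) and VPS3 (vacuolar protein sorting), had -1.71, -1.51, -1.66 and -1.77 in wild type. On the 6 rrm3 delete arrays it ran from -2.70 to -1.13 with a median of -1.91, and on 4 Rrm3 arrays from -1.70 to -0.27. No array was above 0. The fitted values were -1.66 ± 0.22 (adjusted p = 0.000726), -1.86 ± 0.18 (5.64e-06) and -0.98 ± 0.22 (0.00684), while in wild type its ORFs RSM28 and VPS3 had -0.48 and 0.47, neither past the threshold. The wild-type and Rrm3 calls were lost with array 136 as labelled and with forward arrays alone.

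IYGR271W on chromosome VII, right of the RNA helicase gene SLH1, had -1.27, -1.32 and -2.22 on 3 wild-type arrays and -1.72 to -1.27 on 4 rrm3 delete arrays. Here the next ORF on the array, YGR272C, was low as well (-1.91 in wild type, adjusted p = 4.45e-05). IYLR107W on chromosome XII, between the RNA exonuclease gene REX3 and YLR108C with the U6 snRNA gene SNR6 between them in R64, was low in all 3 IPs (-1.03, -0.94 and -1.14), with all 5 Rrm3 arrays between -1.59 and -0.69. In total 11 convergent regions (0.926%) were lower in all 3 IPs, against 1.32% of all features.

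In the Pol2 IP of rrm3 delete cells, 73 convergent regions were higher (6.14%, against 9.39% of all features) and 71 lower (5.98%, against 6.95%), with a median of 0.05. The higher share was thus below the background, and 59 of the 73 were positive on every array that measured them. The higher count fell to 46 (3.87%, against 6.05% of all features) without array 040 and to 48 (4.12%, against 6.69%) without array 239. Without wild-type array 039, 086 or 230 it was 34 to 36 of 534 to 543 tested (6.31% to 6.63%, against 9.2% to 9.25%). Without array 031 it was 142 (12.1%, against 14.8%). The lower count was 38 to 47 (3.2% to 4.03%, against 3.87% to 5.41%) without array 040, 137, 183, 239 or 240. It was 26 to 31 (4.79% to 5.75%, against 6.28% to 6.31%) without wild-type array 039, 086 or 230, and 111 (9.48%, against 11.6%) without 031. Restricted to the pairs that face each other directly in R64, 48 of 1022 were higher (4.7%, against 9.39% of all features).

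Several of the highest rrm3 delete values belonged to regions with an RNA gene next to them. IYOR176W beside HEM15, the ferrochelatase gene, with a tRNA gene between its ORFs, had 0.82 to 1.72 on the 6 arrays with a median of 1.06 (fitted 1.18 ± 0.19, adjusted p = 0.000592). IYER150W between SPI1 (a cell wall protein) and UBP3 (a ubiquitin protease), also with a tRNA gene between, had 0.62 to 1.53 with a median of 1.12 (1.05 ± 0.14, adjusted p = 0.000154). IYLR159W lies beside a 5S rRNA gene and the repeated ASP3 genes and had 0.91 to 1.82 with a median of 1.21 (1.26 ± 0.21, adjusted p = 0.000498), and its spot may hold DNA of several copies. For the first 2 regions, wild-type arrays lay at 0.05 to 0.60 and at -0.09 to -0.03, below every rrm3 delete array. IYLR159W had 0.50 to 1.19 in wild type, so that its groups overlapped. Others had no RNA gene in R64: IYBR180W beside RPS6B, a ribosomal protein gene, was at 1.09 ± 0.16 and IYNL145W beside the a-factor gene MFA2 at 1.13 ± 0.25. IYLR230W, between YLR230W and BNA5, was at 1.33 ± 0.17 (arrays 0.84 to 1.98, limma adjusted p = 6.38e-05). YLR230W is not in R64, so the gene next to it was not read. Each of these was above IYER150W, which is given for its tRNA gene.

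The difference between rrm3 delete and wild type asked where Pol2 gains or loses signal when Rrm3 is absent. It was past the threshold for 3 convergent regions, all higher in rrm3 delete (0.253%, against 0.557% of all features), and for 0 in the lower direction in limma, where the background is also 0. At an unadjusted p under 0.05 there were 28 higher and 14 lower of 1188, against 557 and 118 of all 12380 features. The median difference over the convergent regions was 0.00.

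IYGL029W on chromosome VII lies between CGR1, which acts in ribosomal RNA processing, and SCW11, a cell wall protein gene. It had 0.00, 0.14 and 0.08 on wild-type arrays 039, 086 and 230, and 1.02 to 1.57 with a median of 1.20 on the 6 rrm3 delete arrays. The groups were far apart, and 4 Rrm3 arrays lay between them at 0.32 to 0.66. The difference was 1.22 ± 0.20 (SE; 2.33-fold, adjusted p = 0.0131), lost in 2 of 23 alternative settings (no filter on rejected spots and forward arrays alone). CGR1 itself was higher by 0.84 (adjusted p = 0.201) and SCW11 by 0.38 (adjusted p = 1).

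IYKR039W on chromosome XI, right of GAP1, the general amino acid permease gene, had 0.27, 0.19 and 0.38 on the same wild-type arrays. The 5 rrm3 delete arrays that measured it gave 1.63, 1.38, 1.52, 1.17 and 1.13, all above wild type. The difference was 1.09 ± 0.23 (2.13-fold, adjusted p = 0.044), and it passed in 8 of 23 settings. IYMR238W on chromosome XIII, between DFG5 (a cell wall protein) and RNT1 (RNase III), had -0.05, -0.04, 0.01 and 0.38 in wild type and 0.68 to 1.23 with a median of 1.04 in rrm3 delete. The difference was 0.91 ± 0.18 (1.88-fold, adjusted p = 0.031), and it passed in 12 of 26 settings.

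**Figure D4:**
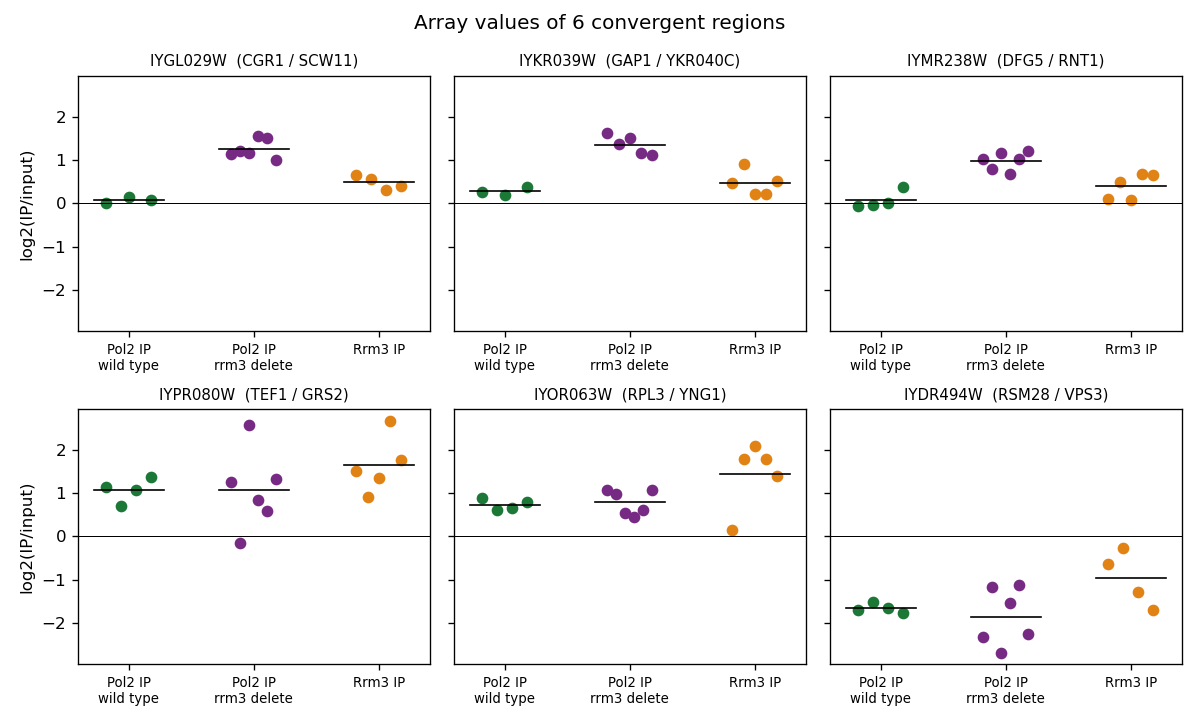
Log2(IP/input) of 6 convergent regions (vertical axis), each point 1 array, by group, with the plain mean of the arrays as a bar. IYGL029W, IYKR039W and IYMR238W are higher on every rrm3 delete array than on any wild-type array, IYPR080W and IYOR063W are high in all 3 groups, and IYDR494W is low in all 3.

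All 3 of these regions have a tRNA gene as the next gene in R64. For IYGL029W and IYMR238W it lies between the 2 ORFs. For IYKR039W the next ORF on the array, YKR040C, is not in R64, where a tRNA gene follows GAP1; this was looked up after its values were seen. Without array 031, 12 of 1171 convergent regions were higher in rrm3 delete than in wild type, and 9 of them have a tRNA gene next. Among these 9 are IYER150W (1.10 ± 0.21, adjusted p = 0.0118), IYOR176W (0.90 ± 0.18, 0.0149) and IYER157W beside COG3, a Golgi transport gene (0.84 ± 0.14, 0.00609). Calls rose over all features in that fit, from 9.39% to 14.8% higher in the rrm3 delete IP taken by itself. The share of all features called for the difference in that fit is not given here. The count of convergent regions past the threshold for the difference was 0 without wild-type array 039, 086 or 230, where only 534 to 543 could be tested. IYGL029W and IYKR039W, measured on 3 wild-type arrays, were not tested in those fits, and IYMR238W was tested and did not pass. The count was 1 without wild-type array 136 or without rrm3 delete array 040, 137, 239 or 240. It was 0 among the pairs that face each other directly in R64, which have no tRNA gene between them.

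In all, 36 convergent regions have a tRNA gene between their ORFs in R64, and 33 of them were tested. Their median was -0.05 in wild type and 0.26 in rrm3 delete, and the median difference was 0.33, with 25 of 33 above 0. Over the 1155 other convergent regions it was 0.00, with 571 above 0. On single arrays the median of these regions was 0.10 to 0.48 on the 6 rrm3 delete arrays and -0.27 to -0.08 on the 4 wild-type arrays, with no overlap. In the Rrm3 IP it ran from -0.46 on array 031 to 0.28 on array 185.

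Within this set the values followed the strand of the tRNA gene, a split made after the values were seen and therefore given with no test. The tRNA gene is the first gene to the right of the named ORF for 35 of the regions. The array also carries 250 regions named for tRNA genes, so a region named for an ORF may end at the tRNA gene, although the files do not give its ends. With the tRNA gene on the C strand, as the last letter of its R64 name gives it, the tRNA gene's end faces the named region; with the W strand, its start does. Of 15 tested C-strand regions, 7 (46.7%) were higher in rrm3 delete, against 9.39% of all features. The median of these 15 was 0.49, against 0.01 in wild type. Of 17 tested W-strand regions, 2 (11.8%) were higher and 6 (35.3%) lower in rrm3 delete, against 9.39% and 6.95% of all features. The median of these 17 was -0.32, against -0.13 in wild type.

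The C-strand regions separated the groups on every array. Their median was 0.66, 0.72, 0.55, 0.44, 0.72 and 0.60 on rrm3 delete arrays 040, 137, 182, 183, 239 and 240 and -0.02, 0.05, -0.18 and 0.05 on wild-type arrays 039, 086, 136 and 230. The separation was present among arrays of either dye orientation. The median difference was 0.66, with 13 of 15 above 0. The W-strand regions overlapped, at -0.42 to -0.07 in rrm3 delete and -0.36 to -0.16 in wild type, and their median difference was 0.10, with 11 of 17 above 0. In the Rrm3 IP, C-strand regions had a median of 0.32, with -0.32 on array 031 and 0.29 to 0.44 on the other 4 arrays. W-strand regions had -0.26, with -0.70, 0.03, -0.49, -0.48 and 0.01 on arrays 031, 041, 088, 184 and 185. The ranges overlapped through array 031 alone, and on each of the 5 arrays the C-strand median was the higher.

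Examples from each side follow. With a C-strand tRNA gene, IYHR020W beside RPS27B, a ribosomal protein gene, had 0.14, 0.12 and 0.28 in wild type and 0.55 to 1.27 with a median of 0.77 in rrm3 delete. IYDR106W between ARP10 and TMN2 had 0.20, 0.17 and -0.63 in wild type and 0.64 to 1.10 with a median of 0.71 in rrm3 delete. Neither region's groups overlapped, and neither difference passed the threshold (0.67 ± 0.21, adjusted p = 0.327, and 0.88 ± 0.26, adjusted p = 0.27). With a W-strand tRNA gene, IYLR113W beside HOG1, the osmotic stress kinase gene, had -0.92, -0.80 and -1.29 in wild type and -1.64 to -0.90 with a median of -1.13 in rrm3 delete, and its groups overlapped. IYCR097W, between HMRA1 of the silent mating-type cassette and GIT1, had -0.64 ± 0.15 in wild type (adjusted p = 0.0223), -0.03 ± 0.12 in rrm3 delete and -0.96 ± 0.13 in the Rrm3 IP (adjusted p = 0.000438). The 2 W-strand regions that were higher in rrm3 delete were IYER150W and IYGR023W, between MTL1 and THG1. IYGR023W had -0.27, -0.19, -0.16 and -0.36 in wild type and 0.43 to 0.73 on the 6 rrm3 delete arrays, with no overlap (0.52 ± 0.16 in rrm3 delete, adjusted p = 0.0336; difference 0.77 ± 0.25, adjusted p = 0.37). IYKR039W, which is not among the 17, also has a W-strand tRNA gene next.

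**Figure D5:**
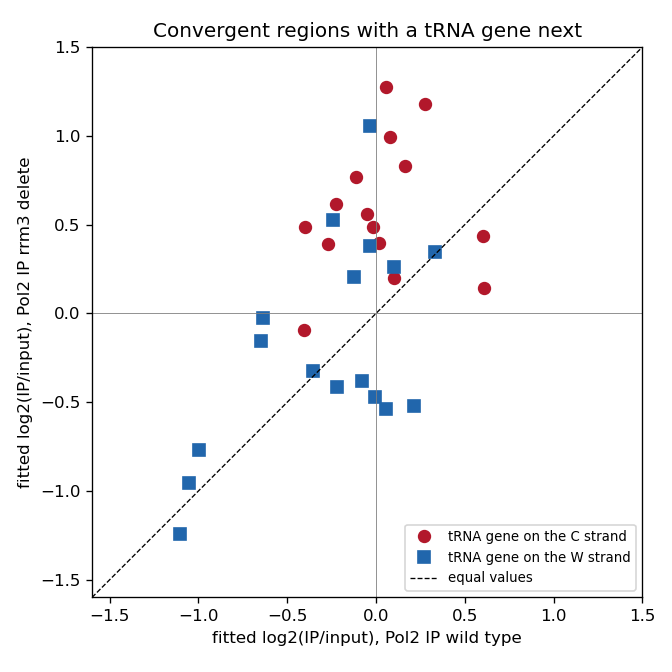
Fitted log2(IP/input) of the Pol2 IP in wild type (horizontal axis) and rrm3 delete (vertical axis) for the convergent regions whose first right-hand gene in R64 is a tRNA gene, by strand of that gene. Of the 15 C-strand regions 13 lie above the line of equal values and of the 17 W-strand regions 11 do.

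The same split was read in regions outside the convergent class. Among tandem regions whose named ORF is also on the W strand, those with a C-strand tRNA gene next had a median difference between rrm3 delete and wild type of 0.58 (21 regions) and those with a W-strand tRNA gene 0.08 (20 regions). Where the named ORF is on the C strand the 2 kinds were closer: 0.62 and 0.52 in divergent regions (30 and 21) and 0.48 and 0.51 in tandem regions (25 and 18). The difference between strands was not tested in any class.

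Regions with a small nuclear or nucleolar RNA gene between their ORFs were few, and no test of them as a set was made. The 11 tested had a median difference between rrm3 delete and wild type of 0.00, and a Rrm3 median of 0.44. In the Rrm3 IP 5 were higher (45.5%, against 11.0% of all features) and 1 lower (9.09%, against 12.7%), from -1.14 to 0.98. The 25 tested regions with only protein-coding genes between had 0.05 and 0.15 by the same 2 measures.

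The comparison of the Rrm3 IP with the Pol2 IP of wild-type cells asked where the helicase is found beyond the polymerase. It shares the wild-type arrays with the difference between rrm3 delete and wild type. In limma 0 of the 1188 convergent regions passed in either direction, as did 0.00808% of all features in the higher and 0 in the lower direction. At an unadjusted p under 0.05, 89 of the 1188 were higher and 15 lower in the Rrm3 IP, against 561 and 769 of all 12380 features. The median difference over the convergent regions was 0.15. Leaving out arrays 031 and 041 gave 3 higher and 2 lower of 930 tested. The share of all features in that fit is not given here.

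The calls of the Rrm3 IP and of the Pol2 IP in rrm3 delete cells overlapped in part. They come from different arrays but from one fit, with a shared error estimate and dye term for each feature. Of the 222 regions higher in the Rrm3 IP 14.4% were higher in rrm3 delete, and of the 73 higher in rrm3 delete 43.8% were higher in the Rrm3 IP. Of the lower regions, 23 were shared, 39.7% of the Rrm3 set and 32.4% of the rrm3 delete set. Over all features, 28.8% of the Rrm3 calls and 33.6% of the rrm3 delete calls were shared in the higher direction, and 24.1% and 44.3% in the lower. There were 2 convergent regions called in opposite directions.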

How the data were processed

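Each array compared IP and input DNA on spotted PCR products of ORFs and intergenic regions. The deposited scanner files give channel medians as background-corrected intensity, with quality flags, and the authors' deposited value table gives log2 ratios of the same spots (|r| of at least 0.999 with the scanner ratios). No source used here names the genome build behind the spots, so no coordinates are printed.

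From the background-subtracted medians, log2(IP/input) was computed for spots that were not rejected and had signal above 0. Spots of one name were averaged and each array was centred on its median. limma 3.58.1 in R 4.3.3 (lmFit and eBayes) was fitted to 12380 features measured on at least 3 arrays of each group, over 15 arrays, with group means and a dye term; fitted values therefore differ slightly from plain means. P-values are two-sided and adjusted by Benjamini-Hochberg over all features, with a threshold of 0.05. The number of arrays limits the precision. The code was tested on simulated data.

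Named regions are, in each contrast, the 8 largest and 5 most negative past the threshold that share their sign on every array, those past it in all 3 IPs, those with a tRNA gene between, and up to 3 a gene list. The members and lists were chosen with earlier results of these data known. Alternatives were normexp background correction (offset 50), loess, no flag filter, failed or dim spots left out, the deposited values, array 136 as labelled, no dye term, forward arrays alone, R64 neighbours alone, and arrays left out singly or in pairs. The fit on forward arrays alone (IP in Cy5) had no dye term and a lower minimum of arrays in each group.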

Additional observations from a re-analysis of the deposited data

Results flagged for a closer look

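Of 78 sets of array values examined, 2 had 1 array standing apart from the rest of its group; chance gives about 1 in 20. The median of the convergent regions on Rrm3 array 184 was 0.44, against 0.12 to 0.20 on the other 4. IYMR238W was at 0.38 on wild-type array 230 and between -0.05 and 0.01 on the other 3.

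The difference between rrm3 delete and wild type passed limma's test for 3 convergent regions, each with a tRNA gene next in R64. It was 1.22 at IYGL029W, 1.09 at IYKR039W and 0.91 at IYMR238W.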

How the results depend on the processing

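Medians of the convergent regions moved by less than the spread between arrays. With forward arrays alone, the rrm3 delete median changed sign, from 0.05 to -0.04, and the wild-type median went from 0.07 to 0.00; the median of rrm3 delete minus wild type stayed within -0.03 to 0.05. No call for a named region changed direction. Counts of calls moved by over 1.5 times as follows. Higher in wild type (4): normexp 0, array 136 as labelled 0, no dye term 2, forward arrays 0, without 136 and 182 1, without 031 and 041 30. The 30 were 3.23% of 930 tested, against 4.08% of all features. The other settings gave at most 0.168%, against 0 to 0.606% of all features. Lower in wild type (22): normexp 13, 136 as labelled 2, forward arrays 0, without 136 and 182 12, without 031 and 041 54. The 54 were 5.81%, against 6.16% of all features. The other settings gave 0 to 1.09%, against 0.0753% to 1.59%. Rrm3 delete: higher (73) with forward arrays 22, without 031 and 041 129, R64 neighbours 48, and lower (71) with forward arrays 17. The higher shares were 1.92%, 13.9% and 4.7%, against 2.95%, 15.6% and 9.39% of all features. The lower share was 1.48%, against 2.06%. Rrm3 IP with forward arrays: 17 higher (222), 24 lower (58). These were 1.48% and 2.09%, against 1.37% and 4.3% of all features. Rrm3 delete minus wild type, higher (3): normexp, 136 as labelled, no dye term and without 136 and 182 gave 1 each, forward arrays and R64 neighbours 0, without 031 and 041 6. Rrm3 IP minus wild type (0): 3 higher and 2 lower without 031 and 041. For the differences, the shares of all features in the refitted settings are not given here, so these counts have no background. The causes were not tested; forward arrays alone, R64 neighbours and the pairs left out also have fewer arrays or regions.

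Leaving out 1 array gave 0 to 29 higher and 4 to 55 lower in wild type. It gave 34 to 142 and 26 to 111 in rrm3 delete, and 65 to 233 and 36 to 66 in the Rrm3 IP. The number of convergent regions tested ran from 534 to 1188. Of all features, 0.461% to 3.59% were higher and 1.32% to 5.24% lower in wild type. These shares were 6.05% to 14.8% and 3.87% to 11.6% in rrm3 delete, and 4.9% to 12.7% and 8.0% to 16.4% in the Rrm3 IP. In rrm3 delete minus wild type 0 to 12 were higher, with the share of all features not given here. No paired analysis was possible because the groups share no replicate numbers.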

Other observations

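Array 231, which the labels put in no group, had a convergent median of 0.02. Its RRM3 spot lay at input percentile 19.3. Convergent regions with a C-strand tRNA gene next had a median of -0.02 on it, and IYGL029W was at -0.04.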
